A study of Mus musculus with 6 samples.

Results

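The unfolded protein response and the integrated stress response are the programmes by which a cell adjusts protein folding and synthesis under stress, and 33 of their genes were described here in 3 wild-type (WT) and 3 SRAKO mouse hearts. The genes were chosen by symbol from a list, and each was read from the row of the deposited table that carries its symbol. All 33 were found, among the 25901 rows of the table, and 27 of them had enough signal to be tested. The groups were WT (hearts WT2368, WT2379 and WT2378) and SRAKO (hearts SRAKO2365, SRAKO2371 and SRAKO2372), where SRA is the steroid receptor RNA activator named in the series title. Both genotypes received isoproterenol, a beta-adrenergic agonist, over 4 weeks, so every heart described was a stimulated one. Untreated hearts were not analysed here. The labels give no strain, age, sex, litter or batch, and name neither the SRAKO allele nor the cells it affects. They do not state that the hearts came from separate animals. The p-values thus set genotype differences against the spread between these samples, which may not be the spread between animals.

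In the endoplasmic reticulum (ER), 3 membrane sensors watch for unfolded proteins. IRE1, encoded by Ern1, splices the messenger of the transcription factor Xbp1. ATF6 is cut in the Golgi to release a transcription factor, and PERK, encoded by Eif2ak3, phosphorylates the initiation factor eIF2. Phosphorylated eIF2, which the amino acid sensor GCN2 (Eif2ak4) also produces, lowers general translation while favouring translation of Atf4, whose protein induces Ddit3 (CHOP), Trib3, Chac1 and Asns. In cardiomyocytes these programmes accompany hypertrophy and ischaemia, and the ER there also stores calcium on proteins such as calreticulin. Splicing of Xbp1, cleavage of ATF6, phosphorylation of the kinases and translation of Atf4 are not seen in a table with 1 value per gene, so only RNA abundance is described.

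Several members carry known response elements before their start site, and stretches are shown for those that the results below turn on. The 250 bases before each RefSeq start (GRCm38.p6) were searched on both strands in 33 promoter entries, which cover 30 of the 33 genes. The ER stress response element (ERSE: CCAAT, any 9 bases, CCACG), through which ATF6 acts, was found in 8 of the 33 entries, beside 0.113% of all 32851 promoter entries. These entries belong to 8 of the 30 genes. The 8 were Hspa5, Hsp90b1, Calr, Canx, Pdia6, Dnajc3, Creld2 and Syvn1. ERSE-II (ATTGG, any 1 base, CCACG) was found in Herpud1 and in 0.0304% of all entries. The core of the UPR element (TGACGTG) was found in Hspa5, against 1.65% of all entries. The C/EBP-ATF response element (TGATGNAAN), to which ATF4 binds, was found in Chac1, Asns, Fgf21 and Herpud1, against 3.44% of all entries. The fixed letters of each match are in capitals below, read 5′ to 3′ on the gene's own strand. Where the stretch lies in an exon of the GENCODE annotation only the match and a few bases beside it are given. The same was done for Hsp90b1, whose wider stretch reaches such an exon. Another ERSE match of Hsp90b1, farther from its start, is not printed. A match describes these letters and shows neither binding nor regulation in these hearts.
Hspa5, ERSE, chr2:34772020-34772048, plus strand: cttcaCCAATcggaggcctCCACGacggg
Hsp90b1, ERSE in reverse, chr10:86705528-86705556, minus strand: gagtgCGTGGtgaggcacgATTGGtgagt
Calr, ERSE in reverse, chr8:84847051-84847117, minus strand: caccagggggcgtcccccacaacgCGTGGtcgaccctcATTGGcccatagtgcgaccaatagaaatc
Pdia6, ERSE, chr12:17266467-17266533, plus strand: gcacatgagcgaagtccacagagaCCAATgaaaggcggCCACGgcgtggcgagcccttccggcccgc
Syvn1, ERSE, chr19:6046508-6046574, plus strand: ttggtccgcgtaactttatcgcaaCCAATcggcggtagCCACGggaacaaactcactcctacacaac
Herpud1, the ATF element in reverse and ERSE-II, chr8:94386292-94386411, plus strand: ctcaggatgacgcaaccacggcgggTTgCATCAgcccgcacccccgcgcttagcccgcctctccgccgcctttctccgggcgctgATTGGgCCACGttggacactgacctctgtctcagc
Chac1, the ATF element in reverse, chr2:119351024-119351080, plus strand: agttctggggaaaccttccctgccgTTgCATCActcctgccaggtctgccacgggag
Asns, the ATF element, chr6:7693219-7693237, minus strand: ccacaTGATGaAActtccc

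The labels were checked on Sra1, the gene of SRA. Its FPKM, a level scaled to transcript length and library size, averaged 4.98 ± 1.15 over the 3 WT hearts and 1.93 ± 0.139 over the 3 SRAKO hearts (mean ± SD, as for all such pairs below). Every SRAKO heart was below every WT heart (exact two-sided permutation p = 0.1, the smallest that 3 against 3 can give). In limma across all rows Sra1 was not called either, with a log2 difference of -1.01 and an adjusted p of 0.258. All 7 cardiomyocyte markers searched were present, with a summed FPKM of 9779 to 11910 over the 6 hearts. A ribosomal RNA signal, summed over the 3 rows found of 6 symbols searched, stood at 6270 in WT2368 and 3018 in SRAKO2371. It was 280 to 605 in the other hearts. Nearly all of it was 1 row, AY036118, at 6242 in WT2368 and 3003 in SRAKO2371. Gm26917 was at 17.5 and 6.70 in these hearts and at 1.62 to 2.91 in the others. Gm42418 was at 10.3 and 8.28 against 4.95 to 6.95. WT2368 was also the lowest of the 6 hearts in 44.9% of all tested rows. In these whole hearts, fewer cells of a type and less RNA per cell cannot be told apart.

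Of the 27 tested members, none passed the threshold between genotypes. The test was limma on log2(FPKM + 1) with Benjamini-Hochberg adjustment over 10201 rows at 0.05. It called 0.0196% of all rows, and the smallest adjusted p among the members was 0.9995. At an unadjusted p under 0.05 there was 1 member, Syvn1, while 3.46% of all rows reached that level. Log2 differences, on the log2(FPKM + 1) scale with WT subtracted from SRAKO, ran from -0.38 for Sel1l to 0.31 for Herpud1, and this scale understates the change of weak genes. The members' median difference was -0.05, beside 0.01 over all tested rows, and 21 of 27 members were below WT, beside 46.5% of all rows. Without WT2368 the median was -0.13 with 20 of 27 below WT, beside -0.04 and 61.1% over all rows. Without WT2379 the members' median was -0.02 with 14 of 27 below, beside 0.04 and 39.1% over all rows. In 14 of the 27 members the direction changed when 1 of the 6 hearts was left out. The share of all tested rows that changed direction in this way was not computed.

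The intervals show what size of change these hearts could leave unseen. In 26 of the 27 tested members the 95% interval of the log2 difference, not adjusted for the number of genes, lay within a change of 1 in either direction. The exception was Xbp1, from -0.72 to 1.01. In 20 of 27 the interval also lay within a 1.5-fold change on this scale. Of all 10201 tested rows, 9874 had an interval within a change of 1 and 8917 within a 1.5-fold change. The intervals were widest for Xbp1, Chac1 (-0.75 to 0.68), Ppp1r15a (-0.92 to 0.24) and Hspa5 (-0.67 to 0.46).

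**Figure D1:**
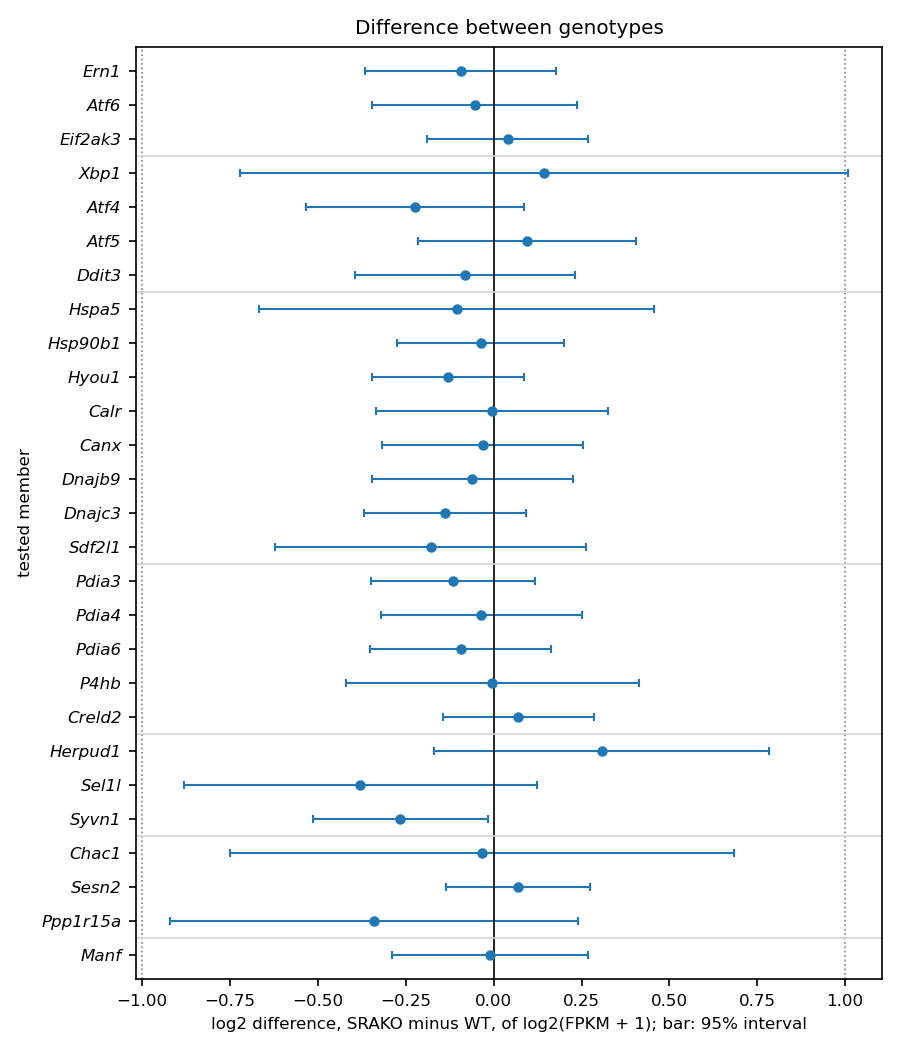
Log2 difference between genotypes (x axis, SRAKO minus WT of log2(FPKM + 1)) for the 27 tested members (y axis, grouped by role), with the 95% interval from limma and dotted lines at -1 and 1. All intervals but that of Syvn1, -0.51 to -0.02, cross 0, and that of Xbp1 is the widest.

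The 3 ER sensors were weakly to moderately expressed and overlapped between genotypes. Ern1 was between 1.17 and 1.78 FPKM in the 6 hearts and Eif2ak3 between 1.10 and 1.47. Atf6 was stronger, at 9.11, 12.04 and 11.5 in WT2368, WT2379 and WT2378 and at 10.2, 9.67 and 11.4 in SRAKO2365, SRAKO2371 and SRAKO2372. The log2 differences were -0.09 for Ern1, -0.05 for Atf6 and 0.04 for Eif2ak3. Without WT2368 they were -0.17 for Ern1, -0.17 for Atf6 and -0.022 for Eif2ak3. Eif2ak4, the kinase that senses uncharged transfer RNA, was at 0.902 to 1.05 and fell short of the filter of an FPKM of 1 in 3 hearts.

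Xbp1, the transcription factor downstream of IRE1, was the most divided of the regulators, but not by genotype. It had an FPKM of 9.33, 4.91 and 11.97 in WT2368, WT2379 and WT2378 and of 11.4, 13.1 and 5.12 in SRAKO2365, SRAKO2371 and SRAKO2372. WT2379 and SRAKO2372 thus lay near 5 while the other 4 hearts lay above 9, a range of 2.67-fold with 1 low heart in each genotype. The genotype means were 8.74 ± 3.56 and 9.87 ± 4.21 (SD, n = 3 each; log2 difference 0.14). Without WT2379 the difference was -0.18, and without SRAKO2372 it was 0.51. The row joins 4 transcripts of the gene on chromosome 11, from 5520659 to 5525893 (plus strand, GRCm38), and does not separate the IRE1-spliced form.

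Atf4, the main effector of phosphorylated eIF2, was the strongest transcription factor of the set. Its FPKM was 51.3, 42.8 and 37.5 in WT2368, WT2379 and WT2378 and 36.9, 35.0 and 39.6 in SRAKO2365, SRAKO2371 and SRAKO2372. The genotypes overlapped, with WT2378 among the SRAKO values (43.9 ± 6.98 against 37.2 ± 2.28, log2 difference -0.22 with an interval of -0.53 to 0.09). Without WT2368 the difference of Atf4 was -0.11, and without WT2378 it was -0.33, where its unadjusted p in limma was 0.0402. Its adjusted p was then 0.881, and 4.69% of all rows had an unadjusted p under 0.05. Ddit3, which encodes the pro-apoptotic factor CHOP, had its highest value in the same heart, at 7.25 in WT2368, and was between 4.84 and 6.04 in the others. Its log2 difference was -0.08 with all hearts and 0.04 without WT2368. The Ddit3 gene (chromosome 10, 127290774 to 127296288, plus strand) overlaps Mars and Gm4189 on the opposite strand, and without strand information their reads cannot be told apart. Atf5, a relative of Atf4 linked to mitochondrial stress, was between 14.9 and 21.0 in WT and between 17.9 and 19.8 in SRAKO, with a log2 difference of 0.10. Genes on the opposite strand also overlap Atf5 (Nup62 and Il4i1), Ppp1r15a (Tulp2), Pdia3 (Catsper2), Pdia6 (Atp6v1c2) and Manf (Dcaf1 and others). The same holds for Hsp90b1 (1810014B01Rik), Herpud1 (Gm15890), Dnajb9 (Mir5627), Eif2ak3 (Gm43292) and, as given below, Syvn1.

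**Figure D2:**
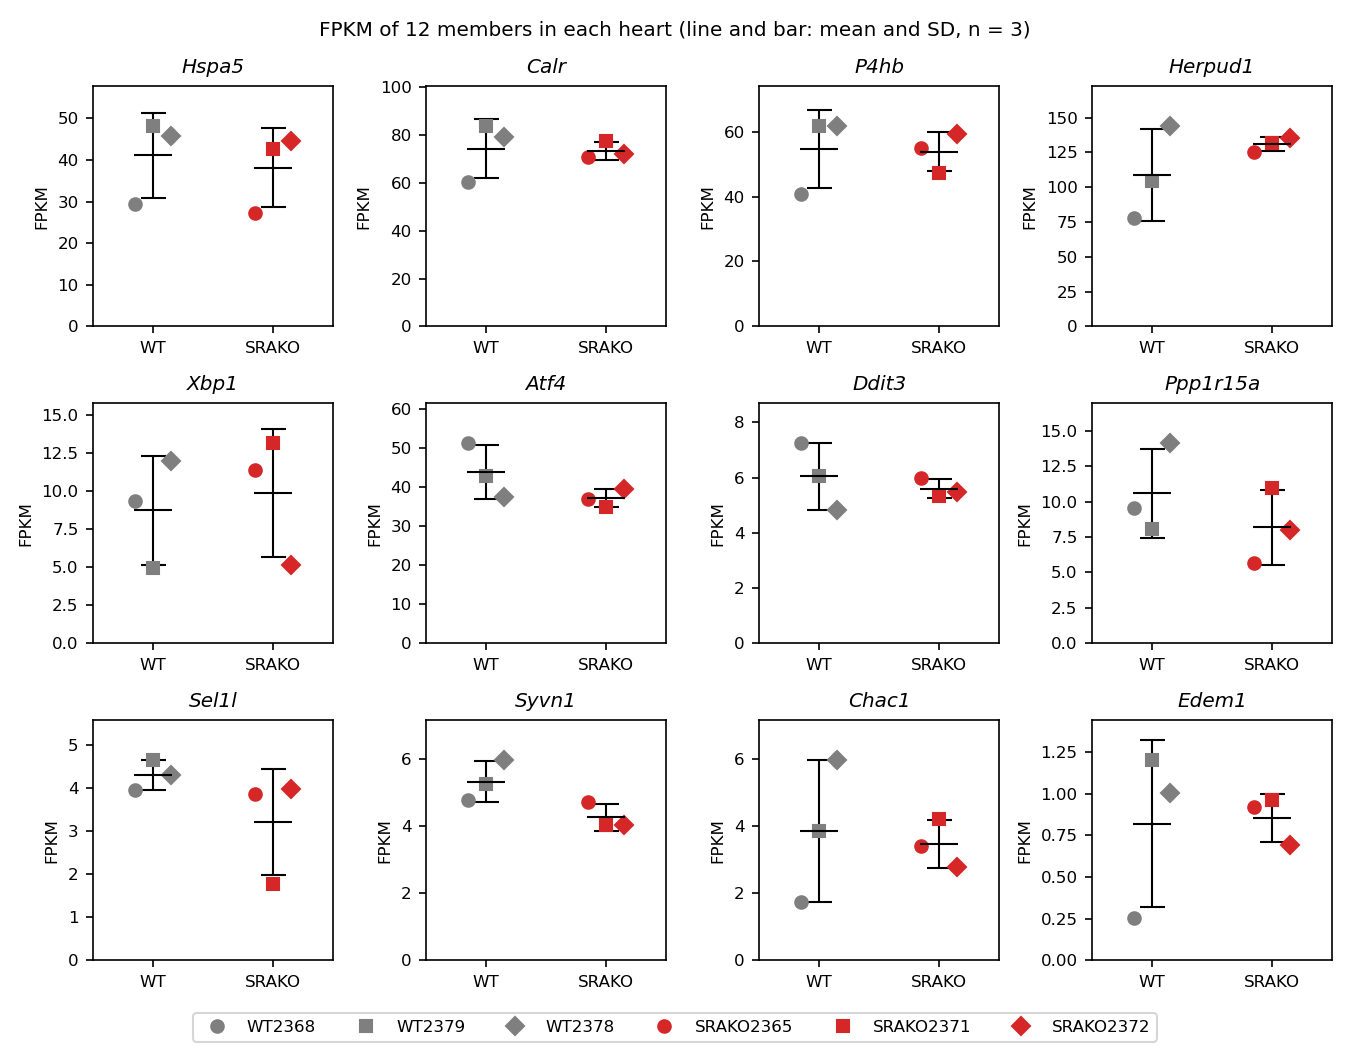
FPKM (y axes, each from 0) of 12 members in WT and SRAKO hearts, 1 symbol per heart, with the mean and SD of 3 hearts. Syvn1 alone shows no overlap between genotypes. In the Xbp1 panel WT2379 and SRAKO2372 lie near 5, and in the Sel1l panel SRAKO2371 lies at 1.78.

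Of the 8 chaperones and cochaperones of the ER lumen, Calr, Hspa5, Hsp90b1, Canx and Dnajb9 were among the 10 members with the highest mean FPKM. All 8 had a mean difference below 0, from -0.18 for Sdf2l1 to -0.0056 for Calr with a median of -0.08, and none passed the test. Without WT2379 the count was 4 below and 4 above, with Hspa5, Calr, Canx and Dnajb9 above, while 39.1% of all rows were then below. Hspa5, which encodes BiP, the chaperone that also restrains the sensors, had an FPKM of 29.5, 48.1 and 45.7 in WT2368, WT2379 and WT2378 and of 27.2, 42.7 and 44.6 in SRAKO2365, SRAKO2371 and SRAKO2372. As with Xbp1, 1 heart of each genotype was low, but these were other hearts, WT2368 and SRAKO2365. The Hspa5 means were 41.1 ± 10.1 and 38.2 ± 9.57 (log2 difference -0.11). Its difference was -0.32 without WT2368 and 0.12 without SRAKO2365.

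Calr, the calcium-binding lectin chaperone calreticulin, was at 60.2, 83.7 and 79.03 in the WT hearts and at 70.7, 77.5 and 71.8 in the SRAKO hearts, in the same order as above. WT2368 was the lowest, and without it the difference of Calr was -0.15. Its membrane-bound partner Canx was between 20.2 and 27.2, also with WT2368 lowest, and its difference went from -0.03 to -0.13 without that heart. Hsp90b1, the ER form of HSP90 known as GRP94, differed least between hearts, from 29.5 to 34.8, and there WT2368 was the highest. Its row also names the overlapping Gm15344 and Gm25745. The remaining chaperones were weaker. Dnajb9 and Dnajc3, cochaperones of BiP, were at 10.5 to 13.7 and 3.93 to 5.11, Hyou1, a nucleotide exchange factor for BiP, at 2.23 to 2.92, and Sdf2l1, a partner of ER J-proteins, at 1.298 to 2.79. The log2 difference of Sdf2l1 was -0.40 without WT2368, where its unadjusted p was under 0.05, and -0.04 without WT2378. Without WT2368 its adjusted p in limma was 0.718, and 6.70% of all rows had an unadjusted p under 0.05.

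Of the disulfide isomerases, which form and rearrange the disulfide bonds of secreted proteins, 4 of 5 were below WT and 1 above, and none passed the test. Without WT2379 the count was 2 below and 3 above, while 39.1% of all rows were then below. P4hb, which encodes PDI and is also a subunit of collagen prolyl hydroxylase, had an FPKM of 40.9, 61.6 and 61.7 in WT2368, WT2379 and WT2378 and of 55.0, 47.3 and 59.3 in SRAKO2365, SRAKO2371 and SRAKO2372. The SRAKO hearts lay within the WT range (54.7 ± 11.99 against 53.9 ± 6.08). The difference of P4hb was -0.0039 with all hearts and -0.20 without WT2368. Pdia3, the partner of calreticulin and calnexin, was at 26.7 to 32.6, Pdia6 at 9.97 to 12.6, and Pdia4, in a row with Mir704, at 8.04 to 10.9. Creld2, a secreted ER stress protein grouped here for its isomerase activity, was nearly the same in the WT hearts at 5.00 ± 0.0763 and at 5.31 ± 0.473 in SRAKO. The 5 differences ran from -0.12 for Pdia3 to 0.07 for Creld2.

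ER-associated degradation, which returns misfolded proteins to the cytosol for the proteasome, held the lowest and the highest difference of the set. Syvn1, the ubiquitin ligase HRD1, was the only tested member whose genotypes did not overlap, at 4.79, 5.25 and 5.98 in WT2368, WT2379 and WT2378 and at 4.72, 4.03 and 4.04 in SRAKO2365, SRAKO2371 and SRAKO2372. Across all tested rows, 3.76% had every SRAKO heart below every WT heart and 4.28% every SRAKO heart above, against 1 and 0 of the 27 members. The nearest hearts of Syvn1, WT2368 and SRAKO2365, were 4.79 and 4.72. The limma estimate was -0.27 ± 0.11 (log2, SE; adjusted p = 0.9995), and with 1 heart left out it ran from -0.33 to -0.19. Of the 6 fits with 1 heart left out, its unadjusted p was under 0.05 without WT2368 and without SRAKO2365, and above it in the others. Without WT2368, 6.70% of all rows were under 0.05, and without SRAKO2365 4.01% were. Syvn1 lies on chromosome 19 from 6046576 to 6053712 (plus strand, GRCm38) and overlaps Mrpl49 on the opposite strand and Mir6988.

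Sel1l, the adaptor that holds HRD1 in its membrane complex, had the lowest difference, -0.38, and it rested on SRAKO2371. Its FPKM was 3.94, 4.64 and 4.29 in WT2368, WT2379 and WT2378 and 3.86, 1.78 and 3.96 in SRAKO2365, SRAKO2371 and SRAKO2372. Apart from SRAKO2371, the hearts lay between 3.86 and 4.64, and without SRAKO2371 the difference was -0.11. SRAKO2371 is 1 of the hearts with high ribosomal RNA and also had the highest summed adipocyte markers, 55.3 against 8.15 to 21.5 elsewhere. Their part in the low Sel1l value was not tested.

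Herpud1, an ER membrane protein that recruits the HRD1 complex, was the most abundant of the 33 genes. It was at 78.2, 104.6 and 143.9 in WT2368, WT2379 and WT2378 and at 125.5, 131.7 and 135.7 in SRAKO2365, SRAKO2371 and SRAKO2372. The SRAKO hearts lay close together (131 ± 5.155) inside the broad WT range (109 ± 33.1), and the log2 difference was 0.31. For Herpud1 it was 0.09 without WT2368 and 0.53 without WT2378, where its unadjusted p in limma was 0.0117. Its adjusted p was then 0.881, and 4.69% of all rows had an unadjusted p under 0.05. Edem1, a lectin that marks mannose-trimmed glycoproteins for degradation, was too low to test, at 0.251 in WT2368 and 0.691 to 1.202 in the others.

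The effectors of the integrated stress response were low or uneven. Ppp1r15a encodes GADD34, the phosphatase subunit that reverses eIF2 phosphorylation, and had an FPKM of 9.54, 8.10 and 14.1 in WT2368, WT2379 and WT2378 and of 5.65, 10.9 and 8.001 in SRAKO2365, SRAKO2371 and SRAKO2372. The genotypes overlapped (10.6 ± 3.15 against 8.19 ± 2.65, log2 difference -0.34). The difference was -0.13 without SRAKO2365 and -0.55 without SRAKO2371. Chac1, a glutathione-degrading enzyme induced by ATF4 and CHOP, was at 1.74, 3.87 and 5.98 in the WT hearts and at 3.42, 4.21 and 2.79 in the SRAKO hearts, in the same order. The WT hearts alone spanned the whole range of 3.43-fold, and the difference was -0.40 without WT2368 and 0.28 without WT2378. Sesn2, a stress-induced regulator of mTORC1, was steady at 1.27 to 1.59 (log2 difference 0.07).

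Trib3 and Asns, classic ATF4 targets that encode a pseudokinase and asparagine synthetase, did not pass the filter. Trib3 was between 0.408 and 0.894 in the 6 hearts and Asns between 0.630 and 1.31. Of the secreted stress factors, Fgf21 was listed at 0 in all hearts but WT2379, where it was 0.0510. Gdf15 was at 0.0705 to 0.312. Manf, an ER-resident neurotrophic factor, was at 2.60 to 3.59 with a log2 difference of -0.0100, in a row that also names its neighbour Rbm15b. The hormones Fgf21 and Gdf15, which are released under strong integrated stress, were thus listed near 0 in both genotypes.

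**Figure D3:**
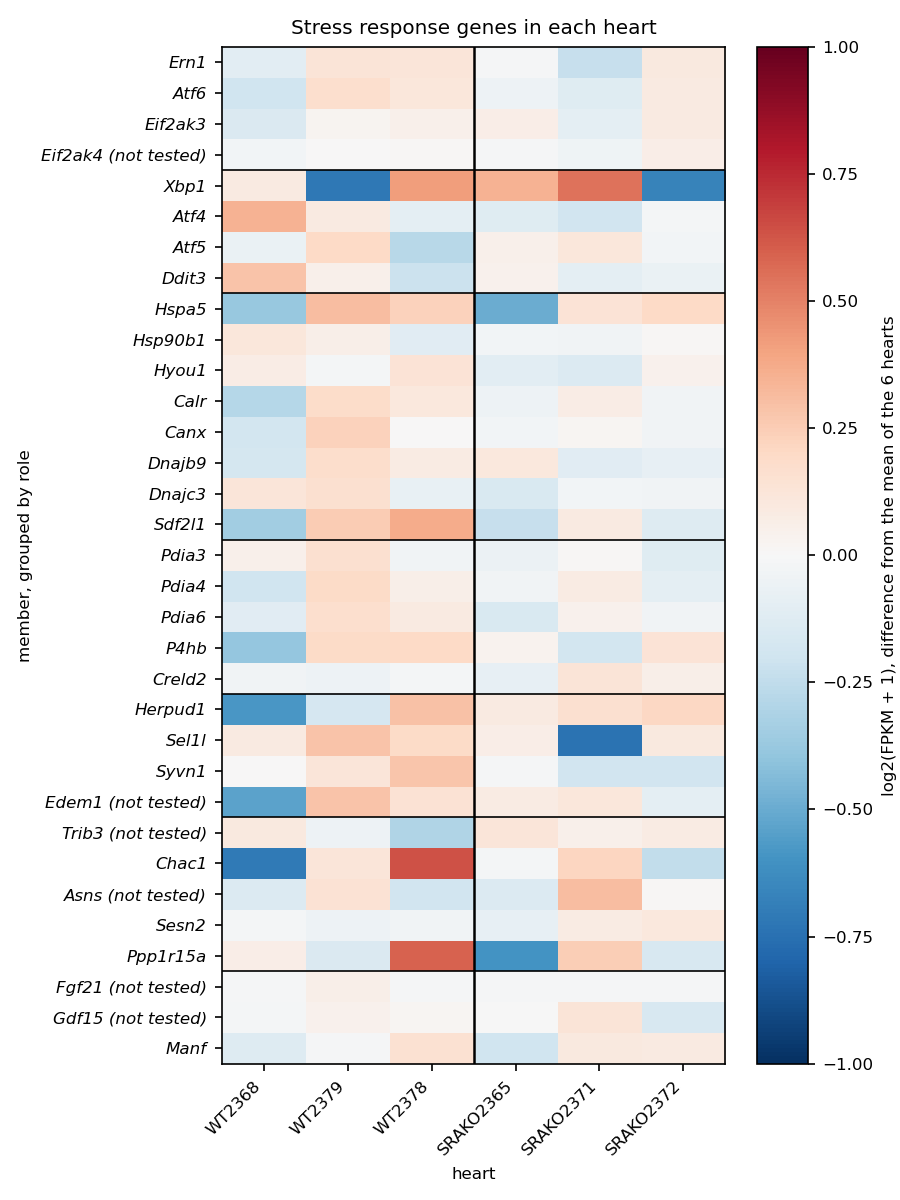
Difference of log2(FPKM + 1) from the mean of the 6 hearts (colour, red higher and blue lower) for the 33 members (y axis, lines between roles) in each heart (x axis, WT left of the vertical line). Chac1, Herpud1, Edem1, P4hb and Hspa5 are low in WT2368, and Xbp1 is low in WT2379 and SRAKO2372.

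The members were also read heart by heart. WT2368 was the lowest of the 6 hearts in 10 of 27 tested members (37.0%), beside the 44.9% of all rows given above, and its median log2 deviation from the mean of the hearts was -0.10 both for the members and for all rows. WT2379 was the highest heart in 12 of 27 members (44.4%, beside 26.5% of all rows), with a median deviation of 0.13 beside 0.05. WT2378 had 0.10 beside 0.04. The SRAKO hearts were at -0.04, 0.02 and -0.03 for SRAKO2365, SRAKO2371 and SRAKO2372, beside 0.01, -0.01 and 0.02 over all rows. The SD among WT hearts exceeded that among SRAKO hearts in 18 of 27 members (66.7%), beside 67.8% of all rows, so the wider WT spread was no more frequent among the members than elsewhere. In WT2368, Atf4, Ddit3 and Hsp90b1 had their highest values, while Atf6, Eif2ak3, Calr, Canx, Dnajb9, Sdf2l1, Pdia4, P4hb, Herpud1 and Chac1 had their lowest.

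**Figure D4:**
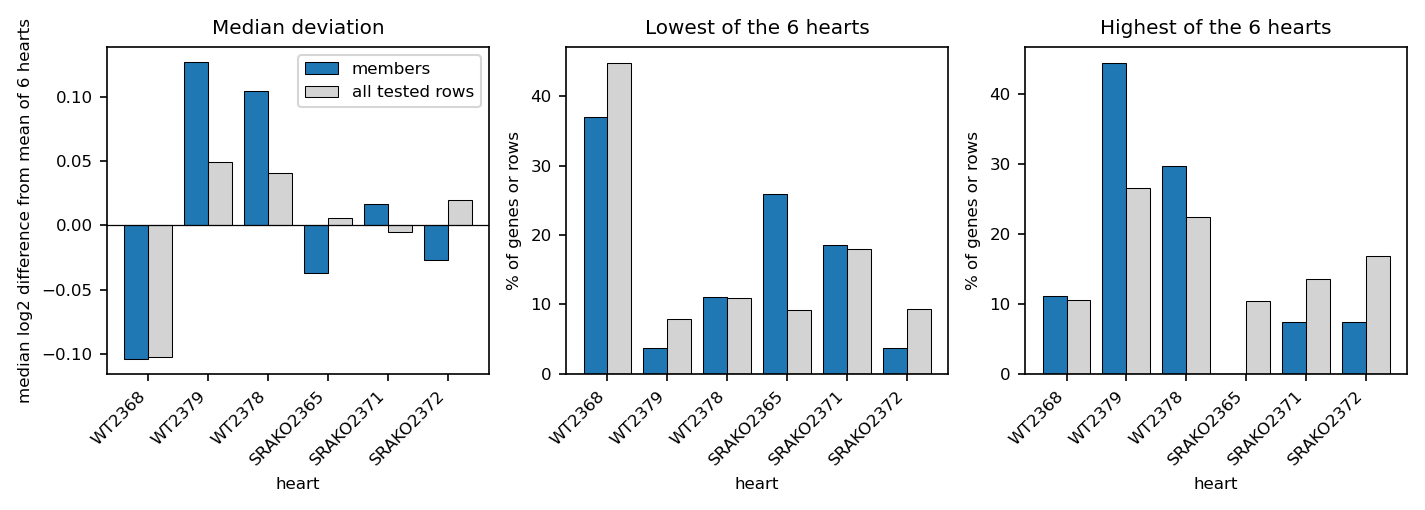
Left, the median log2 deviation of each heart (x axis) from the mean of the 6 hearts. Middle and right, the percentage of genes or rows in which that heart was the lowest or the highest, for the 27 tested members (blue) and all 10201 tested rows (grey). WT2368 is low for members and rows alike, and WT2379 is the highest heart in 44.4% of members.

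Of the 9 members with an ERSE or ERSE-II match, 7 were below WT and 2 above, with a median log2 difference of -0.04, beside 46.5% of all rows below. Without WT2379 the count was 4 below and 5 above, with a median of 0.0215, while 39.1% of all rows were then below. With all hearts, among the 15 tested members with a promoter entry and no such match, 11 were below and 4 above, with a median of -0.06.

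Markers of other cell types were read beside the members. The 8 plasma cell and B cell markers were all found, and their summed FPKM was 15.2 to 72.2 in WT and 19.01 to 28.8 in SRAKO. WT2368 had the most, with Igkc at 50.3. The B cell marker Ms4a1 was at most 0.0443. Summed neutrophil markers were at 0.889 to 9.57 in WT and 2.501 to 52.2 in SRAKO. Summed macrophage markers were at 77.5 to 91.4 and 92.4 to 103.4 and did not overlap. Of the 5 macrophage markers, only C1qa was without overlap when read alone. Csf1r, C1qb and Cd68 were higher on average in SRAKO, and Adgre1 was lower, at 2.02 ± 0.418 and 1.92 ± 0.0978. Smooth muscle markers were at 162 to 250.1 and 224 to 231, and endothelial markers at 137 to 149.97 and 132 to 149. The smooth muscle myosin Myh11 had the smallest p of all markers and no overlap, at 11.98 ± 2.14 in WT and 16.2 ± 0.804 in SRAKO (limma adjusted p = 0.9995). Over all tested rows, 4.28% had every SRAKO heart above every WT heart. Of the same list, Acta2 and Tagln were higher on average in SRAKO but overlapped. Cnn1 was lower on average, at 5.99 ± 1.92 and 5.61 ± 0.636, and also overlapped. Fibroblast markers, of the main collagen-secreting cells, were at 135.6 to 161.8 and 155 to 157. The part of these cells in the members' values was not tested.

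The wider pathway was read from lists of other genes. Of 40 tested genes of ER folding and the secretory pathway, 23 were above WT and 17 below with a median log2 difference of 0.04, and 0 passed the threshold. Pdia5, another disulfide isomerase, had the smallest p, at 2.57 ± 0.430 in WT and 1.87 ± 0.218 in SRAKO with no overlap. It was the only 1 of the 40 without overlap, while 3.76% of all tested rows had every SRAKO heart below every WT heart. Kdelr3, a receptor that returns escaped ER proteins, was at 5.62 ± 1.80 and 4.03 ± 0.354, Creld1 at 5.74 ± 0.569 and 6.84 ± 1.10, and Sil1, an exchange factor for BiP, at 5.47 ± 1.01 and 6.47 ± 0.654. Of 29 tested genes of degradation and response regulation, 16 were above and 13 below with a median of 0.02 and 0 called. There the pro-apoptotic Bak1 was at 9.58 ± 1.45 and 7.51 ± 0.813, and the degradation lectins Os9 and Erlec1 at 18.3 ± 1.59 against 20.9 ± 1.135 and at 9.01 ± 0.398 against 8.16 ± 0.335. Edem3, a mannosidase of the same route, was at 1.32 ± 0.128 and 1.10 ± 0.0494. Every SRAKO heart was below every WT heart in 3 of the 29 (Bak1, Edem3 and Erlec1) and above in 1, Edem2, at 1.92 ± 0.0596 and 2.10 ± 0.0454, beside the 3.76% and 4.28% of all rows given above. Edem2 was outside the naming rule and was named after its values were seen.

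Regulators of the integrated stress response held the gene with the smallest unadjusted p of these lists, Impact. Of 18 tested, 10 were above WT and 8 below, with a median of 0.01 and 0 called. This inhibitor of GCN2 activation was at 2.94, 2.87 and 2.34 in WT2368, WT2379 and WT2378 and at 1.98, 1.77 and 1.985 in SRAKO2365, SRAKO2371 and SRAKO2372. Every SRAKO heart was below every WT heart for Impact and, outside the naming rule, for Eif2s1 and Oma1, 3 of the 18 genes. In 0 of the 18 was every SRAKO heart above, and the shares over all tested rows were 3.76% below and 4.28% above. Eif2s1 and Oma1 were named after their values were seen. The limma log2 estimate for Impact was -0.35 (interval -0.58 to -0.12, adjusted p = 0.9995). Atf3, a stress-induced transcription factor and also an immediate early gene, had the greatest difference of the list, -1.01. It was at 1.69, 8.65 and 4.50 in the WT hearts and at 1.54, 2.30 and 1.08 in the SRAKO hearts, in the same order. WT2368 lay among the SRAKO values, and the difference had an interval of -1.98 to -0.04. Nupr1, a stress-induced chromatin protein, was at 2.22 ± 0.541 and 3.05 ± 0.496, and Cebpb at 10.1 ± 1.72 and 12.1 ± 1.805.

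Other ATF4 and CHOP targets were read in the same way, with 17 of 31 tested above WT, 14 below, a median of 0.02 and 0 called. Aldh18a1, which makes proline precursors, was at 2.41 ± 0.266 in WT and 1.80 ± 0.0653 in SRAKO with no overlap. The transfer RNA synthetases Iars and Tars were at 8.20 ± 0.531 against 7.28 ± 0.0627 and at 7.80 ± 0.367 against 6.94 ± 0.340, also with no overlap. Stc2, a secreted glycoprotein, was at 2.74 ± 0.334 against 3.52 ± 0.587 and overlapped. Every SRAKO heart was thus below every WT heart in 3 of the 31 and above in 0, beside 3.76% and 4.28% of all tested rows. Of 12 tested genes of the mitochondrial unfolded protein response, 7 were above and 5 below with a median of 0.0035, and 0 were called. The inner membrane proteases Yme1l1, Spg7 and Afg3l2 were at 2.72 ± 0.295 against 3.025 ± 0.133, 8.75 ± 0.833 against 9.545 ± 0.938 and 30.4 ± 1.03 against 29.0 ± 1.81. All 3 SRAKO hearts were above all 3 WT hearts for Yme1l1, the only gene of this list without overlap. Over all tested rows the share above in this way was 4.28%. The translocase subunit Timm17a was at 5.94 ± 0.496 against 6.15 ± 0.0531.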

How the data were processed

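RNA of 6 mouse heart samples was sequenced with oligo(dT) bead libraries, per the labels' protocols. The authors deposited FPKM values per gene, 1 column per heart. The submitters' processing notes name cutadapt 1.9, HISAT2 2.0.4, StringTie 1.3.4d and edgeR, and the human build hg38. Of the table's mouse transcript identifiers, 99.6% matched GENCODE M21 (GRCm38), which gave the gene positions printed, while promoter sequences and their positions are RefSeq's. FPKM hides the read number behind a value, so no counting interval is given.

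Groups came from the sample titles. The 10201 rows that reached an FPKM of 1 in 3 or more hearts were tested with limma 3.58.1 in R 4.3.3 on log2(FPKM + 1), by genotype alone, with a variance trend and Benjamini-Hochberg adjustment over all rows. The code was tested on simulated data. Each member had 1 row, 21 of them StringTie-assembled loci and 3 with several symbols. Members, lists and motifs were chosen with earlier results of these data known. All members are named, and in each other list the 4 genes with the smallest p. Other pseudocounts, filters, scalings, weights and left-out hearts were tried. No RefSeq promoter entry matched Hyou1, Atf6 or Manf. Protein sequences were not used here.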

Additional observations from a re-analysis of the deposited data

How the results depend on the processing

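The count of rows called, the members' counts, median and differences, and Sra1 were recomputed under other settings, while the other gene lists, the marker sums and the values by heart were not. In these settings 0 of the 27 tested members were called by limma. The number of rows called, 2 as reported, was 1 with a pseudocount of 0.1, 0 with no filter and 0 without WT2368 and SRAKO2371 together, and ran from 0 to 7 with 1 heart left out. Members at an unadjusted p under 0.05 (1 as reported) numbered 2 with array weights and 2 without WT2368 and SRAKO2371, both times Syvn1 and Sdf2l1. With 1 heart left out they numbered 0 to 2. The share of all rows at that level was 6.62% with array weights and 6.59% without WT2368 and SRAKO2371. It ran from 2.02% to 6.70% with 1 heart left out. The members' median ran from -0.13 to -0.02 with 1 heart left out, while that of all rows ran from -0.04 to 0.04. Without WT2368 and SRAKO2371 together, Xbp1 turned to -0.011, Ddit3 to 0.068 and Hsp90b1 to 0.021. With 1 heart left out, the direction of these members changed and their differences ran from -0.17 to 0.017 for Atf6, -0.022 to 0.097 for Eif2ak3, -0.18 to 0.51 for Xbp1, -0.019 to 0.22 for Atf5, -0.21 to 0.040 for Ddit3, -0.32 to 0.12 for Hspa5, -0.10 to 0.012 for Hsp90b1, -0.15 to 0.086 for Calr, -0.13 to 0.075 for Canx, -0.16 to 0.013 for Dnajb9, -0.14 to 0.052 for Pdia4, -0.20 to 0.093 for P4hb, -0.40 to 0.28 for Chac1 and -0.078 to 0.086 for Manf. The cause was not tested. Sra1 ran from -1.10 to -0.86. Summing several rows of a symbol was not run, since each member had 1 row.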

Other observations

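Beyond the lists, the table's own annotation marks 157 rows as protein processing in the endoplasmic reticulum, a pathway of the KEGG database. This set was added after the data were seen. It holds 22 of the 33 members. Of its 122 tested rows that are not members, 64 were above WT and 58 below, with a median log2 difference of 0.0050 and 0 called by limma (4 at an unadjusted p under 0.05, all below, beside 3.46% of all tested rows in either direction). All 3 SRAKO hearts lay below all 3 WT hearts in 8 of them and above in 2, beside 3.76% and 4.28% of all tested rows. The SD among WT hearts was larger than among SRAKO hearts in 81.1% of these rows, beside 67.8% of all tested rows.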
